A study of Caenorhabditis elegans with 10 samples.

Results

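The libraries described here are 4 of the 10 in a messenger RNA sequencing series from whole Caenorhabditis elegans: replicates 1 and 2 of the strain F01D4.5(baf20), set against replicates 3 and 4 of the same strain. Both pairs carry the same allele, baf20, named after the gene F01D4.5; the labels do not say what the allele changes. Worms came out of L1 arrest and grew on agar plates with the bacterium OP50 as food for 48 hours at 20 °C, and each library was made from a pool of worms. The other 6 libraries, F01D4.5(baf20) replicate 5 and replicates 1 to 5 of N2, the standard laboratory wild type, were grown in the same way and are used here as context. The pairs were chosen by measured values: the second principal component of all 10 libraries had set replicates 1 and 2 apart, and these were also the closest libraries of the series. The contrast between the pairs is therefore given as a description, with no test.

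At this age a hermaphrodite is finishing larval growth. Its gonad makes sperm first and then switches to oocytes, the epidermis renews the cuticle at each moult, and the gut begins to make yolk for the oocytes. Each of these programmes has a well known set of genes. The epidermis and gut also switch on defence peptides, heat shock proteins and fat-burning enzymes in response to infection, heat or lack of food.

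The label checks came first. F01D4.5 had 3.06 and 3.29 CPM (counts per 1e6, scaled between libraries) in replicates 1 and 2, against 4.14 and 3.90 CPM in replicates 3 and 4. The gene had 2.14 CPM in F01D4.5(baf20) replicate 5 and 6.41 to 14.4 CPM in N2, so that all 5 F01D4.5(baf20) libraries lay below all 5 of N2. F01D4.5 is counted over 2 rows, with 29 to 42 counts in replicates 1 to 4, so part of its reads may be missing. T27E7.1, which separates the strains and was chosen here after its values were seen, gave 9.63 to 18.1 CPM in the 5 F01D4.5(baf20) libraries and 154 to 245 CPM in N2. Total counts of the 4 libraries were 9339272 and 9405209 for replicates 1 and 2, against 10062027 and 11025948 for replicates 3 and 4. Ribosomal RNA took 0.630% and 0.548% of counts in replicates 1 and 2, against 0.376% and 0.392% in replicates 3 and 4; its part in the differences was not tested.

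Replicates 1 and 2 were closer to each other than any other libraries of the series, and may not be independent. A chi-square of their counts over genes gave 2.102 per degree of freedom, where pure counting error gives a value near 1. The pair of replicates 3 and 4 gave 5.37, and the 4 distances across the pairs were 20.0 to 24.5. Only 19 genes differed at least 2-fold between replicates 1 and 2, against 115 between replicates 3 and 4 and 635 to 713 across the pairs. The labels call them biological replicates and do not say which libraries came from the same plates, day or pool of worms. If they share a source, the pair counts as 1 sample.

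The closest library to replicates 3 and 4 outside their strain was N2 replicate 1. Its distance was 4.48 to replicate 3 and 6.74 to replicate 4, so that replicate 3 lay nearer to this N2 library than to replicate 4. Its distances to replicates 1 and 2 were 25.07 and 26.8. Among N2 itself, replicate 1 stood 21.6 to 117 from the other libraries. By the levels of F01D4.5 (14.4 CPM) and T27E7.1 (171 CPM), it lay with the N2 libraries. F01D4.5(baf20) replicate 5 was 83.85 to 96.2 from replicates 1 to 4 but 15.3 from N2 replicate 5. Whether the libraries that lie close together were grown or processed together was not tested.

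**Figure D1:**
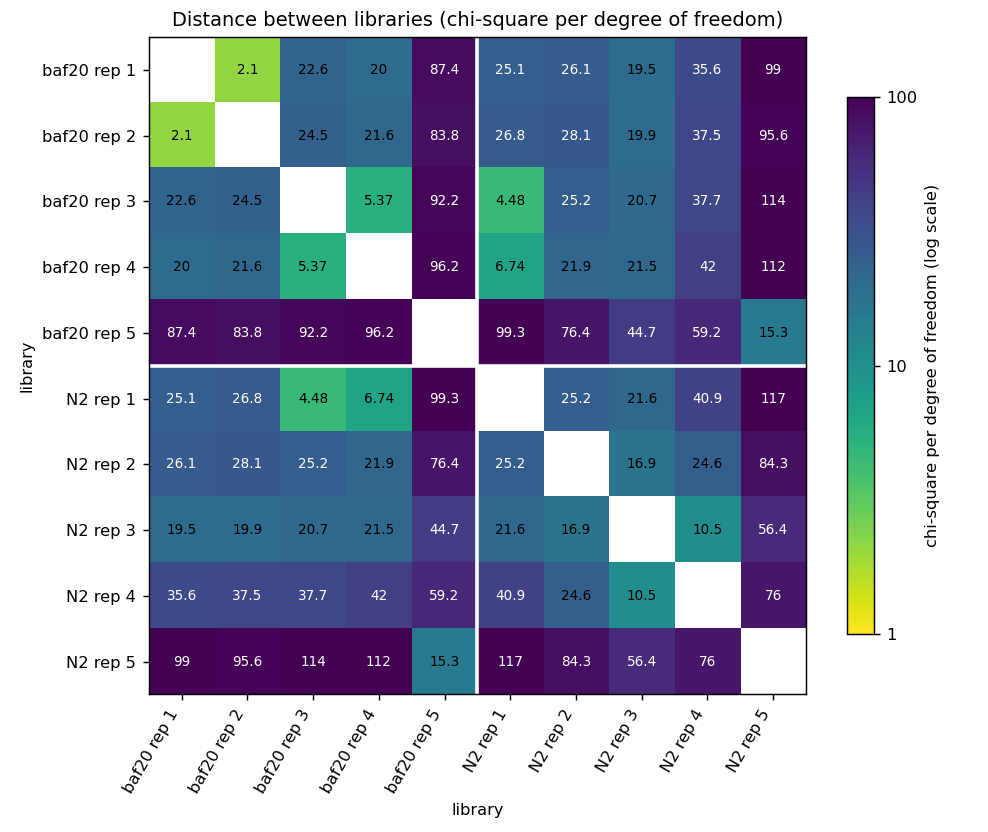
Chi-square per degree of freedom between the counts of each pair of libraries (colour on a log scale, value in each cell), with the 5 F01D4.5(baf20) libraries (baf20) first and the 5 N2 libraries after them. Replicates 1 and 2 of F01D4.5(baf20) form the closest pair at 2.102, and replicates 3 and 4 lie near N2 replicate 1 at 4.48 and 6.74.

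A gene was called set apart where both libraries of one pair lay at least 2-fold above both libraries of the other on the log2 CPM scale. Of 12402 genes with enough counts, 365 (2.94%) were set apart higher and 140 (1.13%) lower in replicates 1 and 2. These shares are the base for the counts of list members given below. By the looser count of pairs that did not overlap, 4385 genes (35.4%) were higher and 4026 (32.5%) lower. The pairs were selected on these libraries, so the size of these counts is not evidence. The distance between the pairs held 74.4% of the variance of log2 CPM over the 4 libraries, the distance within replicates 1 and 2 held 9.97%, and that within replicates 3 and 4 held 15.6%. The median difference over all genes, replicates 1 and 2 minus replicates 3 and 4, was 0.02 on the log2 scale. Genes just inside the threshold were nspb-7 and F14D7.1 with gaps of 1.00, and elo-9 on the lower side with 1.005; just outside were ZK863.8 and tsp-3 with 0.998, and lips-10 with 0.997. With 1 library left out, so that fewer had to clear the gap, the counts were 523 higher and 247 lower without replicate 1, 481 and 254 without replicate 2, 581 and 245 without replicate 3, and 697 and 216 without replicate 4.

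**Figure D2:**
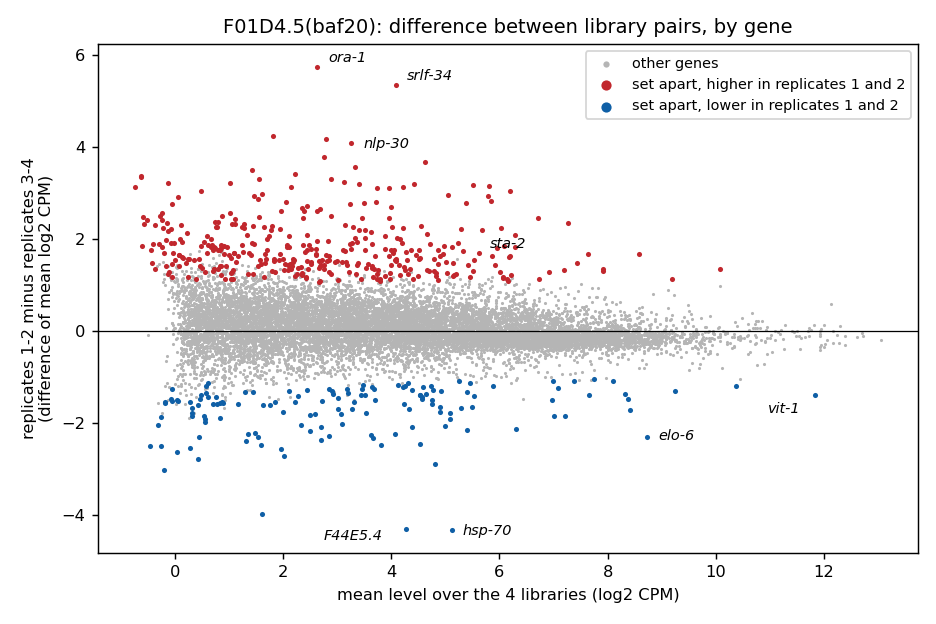
Difference between replicates 1-2 and replicates 3-4 (vertical axis, log2 CPM) against the mean level over the 4 libraries (horizontal axis, log2 CPM) for 12402 genes, with set-apart genes in colour. The 365 genes higher in replicates 1 and 2 lie mostly at low and middle levels; hsp-70 and F44E5.4 are the steepest on the lower side.

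Set-apart genes were unevenly spread. Chromosome V held 139 of the 365 higher genes, which is 5.81% of its 2392 genes tested, against 1.28% of 2031 on chromosome I. The share was smaller among highly expressed genes: 4.96% of genes in the lowest of 5 equal classes by mean level were set apart higher, against 0.484% in the highest class. The median difference also fell with level, at 0.19, 0.17, 0.13, −0.03 and −0.13 from the lowest class to the highest. Medians of gene lists given below are not corrected for level. Pseudogenes were set apart higher in 26 of 499 cases (5.21%), and protein-coding genes in 334 of 11662 (2.86%). The median difference was 0.12 in the class of genes with the shortest summed exons and −0.03 in the class with the longest. In 10 places at least 3 neighbouring genes were set apart together, all of them higher in replicates 1 and 2. The longest run was 10 genes on chromosome III (1271993 to 1324613, WBcel235), from fbxa-29 to fbxa-14.

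The 6 libraries outside the split give the place of each pair in the series. Of the 140 lower genes, replicates 1 and 2 lay below all 6 other libraries in 117 (83.6%), whereas replicates 3 and 4 lay above all 6 in 14 (10%). Over all 12402 genes these shares were 10.7% and 8.88%. Of the 365 higher genes, replicates 1 and 2 lay above all 6 in 203 (55.6%), and replicates 3 and 4 below all 6 in 108 (29.6%). Over all 12402 genes these counts were 2007 and 950 (7.66%). The genes were picked for the distance between the pairs, which by itself raises such shares. N2 replicate 1 was nearer to replicates 3 and 4 in 345 of the 365 higher genes and in 135 of the 140 lower ones. N2 replicates 2 to 4 were nearer to replicates 3 and 4 in 197 to 231 of the higher genes. The libraries numbered 5 were nearer to replicates 1 and 2 in 230 (F01D4.5(baf20)) and 238 (N2) of the higher genes, but in only 15 and 17 of the lower ones.

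Genes for antimicrobial peptides of the epidermis made up the clearest group among the higher genes. These are nlp and cnc peptides that the epidermis secretes after fungal infection or wounding. Of 15 tested, 11 were set apart higher and none lower, with a median difference of 1.85, where all genes had 0.02; the list was chosen after its values were seen. nlp-30 (chromosome V, 3981980 to 3982741) had 34.5 and 44.5 CPM in replicates 1 and 2, against 1.66 and 2.69 CPM in replicates 3 and 4, a 17-fold difference of the mean log2 values. Its neighbour nlp-34 had 25 and 34.1 CPM in replicates 1 and 2, against 0.932 and 2.14 CPM in replicates 3 and 4. Both pairs lay far apart, yet the libraries numbered 5 reached the level of replicates 1 and 2 for nlp-30, with 33.2 CPM in F01D4.5(baf20) and 34.9 CPM in N2. The genes nlp-34, nlp-31, nlp-30, nlp-29 and nlp-28 form a run of 5 on chromosome V between 3978825 and 3988316. nlp-29, the usual reporter gene for this response, had 120 and 138 CPM in replicates 1 and 2, against 31.5 and 40.0 CPM in replicates 3 and 4. Not all members differed: nlp-27 had 228 and 227 CPM in replicates 1 and 2, against 213 and 229 CPM in replicates 3 and 4.

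The caenacin cnc-2 (chromosome V, 1449665 to 1450183) differed from the nlp genes in that no other library came near. It had 19.6 and 31.2 CPM in replicates 1 and 2, against 1.55 and 1.67 CPM in replicates 3 and 4, with 3.37 CPM in F01D4.5(baf20) replicate 5 and 1.00 to 3.20 CPM in N2. sta-2 encodes a STAT-like transcription factor that the epidermis needs to switch on these peptides; the gene was chosen after its values were seen. It had 85.8 and 91.7 CPM in replicates 1 and 2, against 25.5 and 29.4 CPM in replicates 3 and 4. All 6 other libraries, at 23.5 to 37.4 CPM, lay with replicates 3 and 4.

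Some members of other families linked to defence were higher in replicates 1 and 2 as well, again in lists chosen after their values were seen unless stated. Of 19 fip and fipr genes, named for induction by fungus, 4 were set apart higher, and all 19 differences were positive (median 0.89). fipr-22 (chromosome I) had 33.3 and 35.0 CPM in replicates 1 and 2, against 2.49 and 2.97 CPM in replicates 3 and 4; N2 had 3.18 to 8.19 CPM. Of 15 pals genes, a family with members in the response to intracellular pathogens, 3 were set apart higher (median 0.25). pals-23 had 6.65 and 8.33 CPM in replicates 1 and 2, against 0.932 and 1.95 CPM in replicates 3 and 4. Among F-box A proteins, substrate adaptors of ubiquitin ligases and a list chosen with earlier results of these data known, 26 of 124 were set apart higher and none lower (median 0.31). fbxa-33, annotated as a pseudogene, had 28.4 and 25.19 CPM in replicates 1 and 2, against 2.49 and 2.79 CPM in replicates 3 and 4. The protein-coding fbxa-128 had 27.3 and 31.3 CPM in replicates 1 and 2, against 4.35 and 3.81 CPM in replicates 3 and 4. C-type lectins and lysozymes, secreted proteins that bind or break down microbes, were divided, in a list of the same origin: 2 of 115 were set apart higher and 4 lower (median 0.08). Over all genes 2.94% were set apart higher and 1.13% lower. In the fbxb and fbxc genes 1 of 27 was set apart, and the median was −0.08. That 1 gene was fbxc-58, with 84.5 and 89.6 CPM in replicates 1 and 2, against 6.32 and 7.06 CPM in replicates 3 and 4. Y58A7A.3, Y58A7A.4 and Y58A7A.5 are neighbours on chromosome V (5077854 to 5086969), with differences of 2.73 to 3.16. Y58A7A.5 had 134 and 140 CPM in replicates 1 and 2, against 13.8 and 16 CPM in replicates 3 and 4, and 13.6 to 30.6 CPM in the other 6 libraries. Reads of near-identical copies in these families were not separated.

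The 2 steepest higher genes belonged to none of these lists. srlf-34 (chromosome II, 10312293 to 10312943) had 92.9 and 124 CPM in replicates 1 and 2, against 2.49 and 2.41 CPM in replicates 3 and 4, a 40.6-fold difference. ora-1, an Onchocerca-related antigen gene on chromosome IV (7977890 to 7979020), had 42.6 and 47.7 CPM in replicates 1 and 2, against 0.311 and 1.21 CPM in replicates 3 and 4. The low end of ora-1 is at the limit of these libraries, in which 3 counts correspond to 0.272 to 0.321 CPM, and its 53.3-fold difference rests on the prior count. The other 6 libraries gave 3.0 to 10.5 CPM for srlf-34 and 0.546 to 16 CPM for ora-1. For both genes replicates 1 and 2 were the highest of the 10 libraries, and replicates 3 and 4 were among the lowest with N2 replicate 1.

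**Figure D3:**
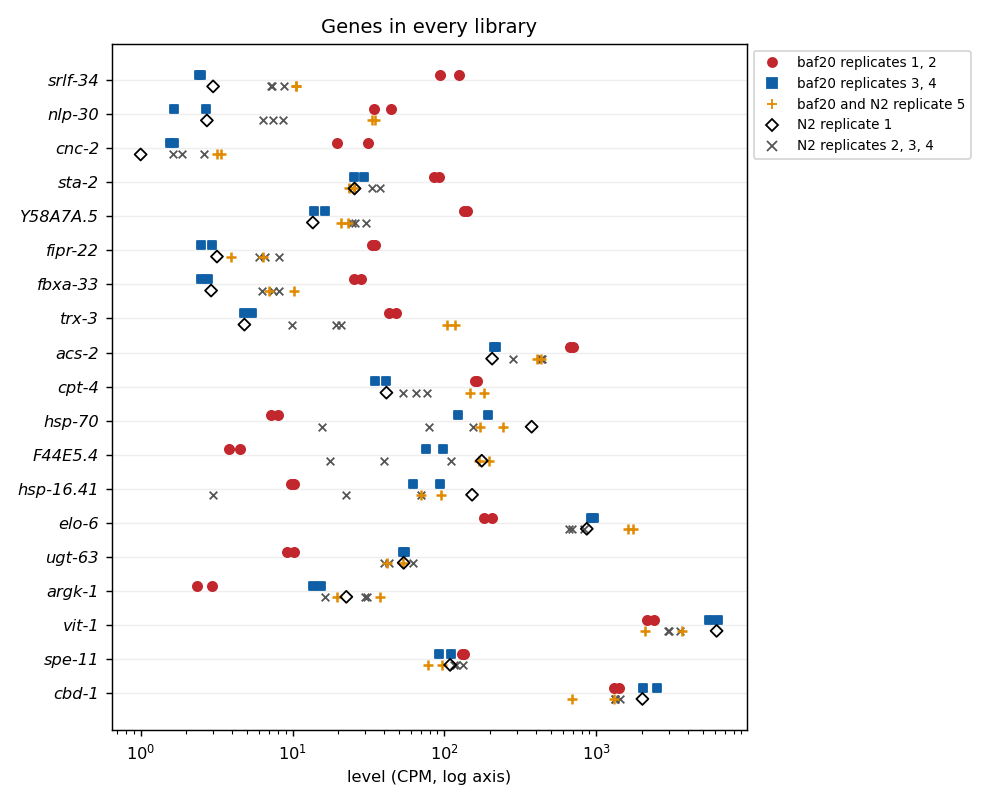
Level of 19 genes (CPM, log axis) in each of the 10 libraries, with F01D4.5(baf20) replicates 1 and 2, replicates 3 and 4, the 2 libraries numbered 5, N2 replicate 1 and N2 replicates 2 to 4 as separate symbols. For sta-2 and Y58A7A.5 replicates 1 and 2 stand alone above all others, while for hsp-70 and elo-6 they lie below replicates 3 and 4, and N2 replicate 1 lies with replicates 3 and 4 for elo-6 and vit-1.

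Some genes that bring fat into mitochondria for breakdown were higher in replicates 1 and 2. acs-2, a mitochondrial acyl-CoA synthetase known to be induced by fasting, had 706 and 669 CPM in replicates 1 and 2, against 213 and 217 CPM in replicates 3 and 4, a 3.20-fold difference. The other 6 libraries had 206 to 441 CPM, so replicates 1 and 2 were the highest of all. Of 17 acyl-CoA synthetases tested, acs-2 was the 1 set apart higher and acs-1 the 1 set apart lower. Differences were positive in 11 and negative in 6 of them (median 0.19). Carnitine palmitoyltransferases pass long-chain fatty acids into mitochondria. Of 5 such genes tested, 3 were set apart higher (2.94% over all genes) and none lower (median 1.14). cpt-4 had 158 and 165 CPM in replicates 1 and 2, against 41.1 and 35.0 CPM in replicates 3 and 4. The libraries numbered 5 reached a similar level, with 147 CPM in F01D4.5(baf20) and 181 CPM in N2. cpt-3 had 14.2 and 15.9 CPM in replicates 1 and 2, against 1.76 and 0.836 CPM in replicates 3 and 4. With 17 and 9 counts in replicates 3 and 4, cpt-3 passed the filter through replicates 1 and 2 alone, which fixes its direction. Here the libraries numbered 5 stayed low, with 3.48 CPM in F01D4.5(baf20) and 1.86 CPM in N2, and for cpt-1 they had 428 and 389 CPM. The abundant cpt-1 had 886 and 856 CPM in replicates 1 and 2, against 413 and 378 CPM in replicates 3 and 4, and cpt-2 was the 1 member with no difference in this direction (−0.05). icl-1, the enzyme of the glyoxylate cycle that turns fat into sugar precursors, had 80.0 and 77.0 CPM in replicates 1 and 2, against 28.1 and 25.8 CPM in replicates 3 and 4. The libraries numbered 5 lay between, with 56.5 CPM in F01D4.5(baf20) and 63.8 CPM in N2. acs-2, icl-1 and the lists of acyl-CoA synthetases and carnitine palmitoyltransferases were chosen after their values were seen.

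The differences did not cover the whole of lipid metabolism. In the general list of 57 lipid genes 3 were set apart higher and 4 lower (2.94% and 1.13% over all genes), with a median of 0.16. Acyl-CoA dehydrogenases, which carry out the first oxidation step, had 0 of 8 set apart (median 0.28), too few genes to set against these shares. Of the 8, 6 were higher without overlap and 1 lower, where 35.4% and 32.5% of all genes were. Of 6 lysosomal acid lipases, which free fatty acids from stored fat, 1 was set apart: lipl-4, with 8.12 and 6.68 CPM in replicates 1 and 2, against 0.829 and 0.743 CPM in replicates 3 and 4. With 8 counts in each of replicates 3 and 4, lipl-4 passed the filter through replicates 1 and 2 alone, which fixes its direction. For lipl-4 the libraries numbered 5 had 6.29 CPM in F01D4.5(baf20) and 7.86 CPM in N2. mxl-3, a transcription factor known to hold lysosomal lipase genes down in fed worms, had 126.7 and 122.2 CPM in replicates 1 and 2, against 340 and 310 CPM in replicates 3 and 4, a gene picked with its values known. It had 266 to 461 CPM in the other 6 libraries, all above replicates 1 and 2. fat-5, a desaturase that acts on palmitic acid, had 51.8 and 49.7 CPM in replicates 1 and 2, against 12.4 and 14.7 CPM in replicates 3 and 4. For fat-5 the libraries numbered 5 were higher still, with 68.8 CPM in F01D4.5(baf20) and 56.5 CPM in N2.

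Fatty acid elongases went the other way. Of 8 tested, 3 were set apart lower (1.13% over all genes) and none higher (median −0.39). The list was chosen after its values were seen. elo-6 (chromosome IV, 5386629 to 5388559), which makes branched-chain fatty acids, had 181 and 205 CPM in replicates 1 and 2, against 964 and 927 CPM in replicates 3 and 4. elo-2, which extends palmitic acid, had 184 and 192 CPM in replicates 1 and 2, against 626 and 599 CPM in replicates 3 and 4. acs-1, which activates branched-chain fatty acids, had 2.32 and 2.26 CPM in replicates 1 and 2, against 11.9 and 8.36 CPM in replicates 3 and 4. For elo-6 the other 6 libraries had 659 to 1740 CPM and for elo-2 they had 497 to 686 CPM, so that replicates 1 and 2 stood below every other library. elo-9, the third, cleared the threshold narrowly and lost the call with library totals, with scaling over all 10 libraries and with a prior count of 5.

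Heat shock genes gave the steepest differences in the lower direction. Of 9 tested genes for cytosolic heat shock proteins, 4 were set apart lower (1.13% over all genes) and none higher, with a median of −0.57. hsp-70 (chromosome I, 9320325 to 9322519), a heat-inducible chaperone, had 7.17 and 8.02 CPM in replicates 1 and 2, against 194 and 123 CPM in replicates 3 and 4, so that it was 19.9-fold lower in the first pair. The small heat shock gene hsp-16.41 had 9.81 and 10.3 CPM in replicates 1 and 2, against 92.9 and 61.9 CPM in replicates 3 and 4. F44E5.4, another inducible chaperone of the same type as hsp-70, had 3.80 and 4.52 CPM in replicates 1 and 2, against 98.0 and 75.2 CPM in replicates 3 and 4. Its reads may be shared with F44E5.5, which had 0.527 and 0.617 CPM in replicates 1 and 2, against 14 and 10.2 CPM in replicates 3 and 4. hsp-16.1 and hsp-16.49 also have near-identical copies, hsp-16.11 and hsp-16.48, that held almost no counts, so their levels are uncertain. The regulator of this response, hsf-1, had 146 CPM in both libraries of replicates 1 and 2, against 174 and 155 CPM in replicates 3 and 4.

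Heat shock levels also varied widely among N2 libraries. hsp-70 had 375 CPM in N2 replicate 1, 15.7 in replicate 2, 154 in replicate 3, 78.7 in replicate 4 and 171 in replicate 5. The low level of replicates 1 and 2 thus had a near match in N2 replicate 2, whose hsp-16.41, at 3.01 CPM, lay below both. The list's mean was 4.17 and 4.19 log2 CPM in replicates 1 and 2, against 5.66 and 5.46 in replicates 3 and 4, and 3.87 to 6.02 over the 5 N2 libraries.

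Yolk protein genes, which the adult gut uses to provision oocytes, were lower in replicates 1 and 2. All 5 tested members had negative differences (median −1.04), and 2 were set apart lower (1.13% over all genes). vit-1 (chromosome X, 7727889 to 7733168) had 2390 and 2150 CPM in replicates 1 and 2, against 6310 and 5490 CPM in replicates 3 and 4. vit-3 had 913 and 836 CPM in replicates 1 and 2, against 2090 and 1900 CPM in replicates 3 and 4. The members differed in size: vit-2 had 1790 and 1750 CPM in replicates 1 and 2, against 2140 and 2030 CPM in replicates 3 and 4, while vit-5 had 8174 and 7824 CPM in replicates 1 and 2, against 10190 and 8181 CPM in replicates 3 and 4. For vit-2 the other 6 libraries had 1940 to 2510 CPM, all above replicates 1 and 2. For vit-1, N2 replicate 1 had 6190 CPM, N2 replicates 2 to 4 had 2970 to 3540 CPM and the libraries numbered 5 had 3640 CPM in F01D4.5(baf20) and 2090 CPM in N2.

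Detoxification genes split in both directions. Of 130 tested, 13 were set apart higher and 12 lower (2.94% and 1.13% over all genes), with a median of −0.18. ugt-63, a UDP-glucuronosyltransferase that attaches sugars to toxins, had 9.18 and 10.2 CPM in replicates 1 and 2, against 53.1 and 55.2 CPM in replicates 3 and 4, and 39.8 to 62.3 CPM in the other 6 libraries. ugt-52 went the other way, with 8.97 and 10.4 CPM in replicates 1 and 2, against 2.28 and 2.69 CPM in replicates 3 and 4. Cytochromes P450 had 6 set apart in each direction of 48. Glutathione S-transferases leaned lower, with 28 of 35 negative, a median of −0.42 and 1 set apart. argk-1, an arginine kinase that buffers cell energy, had 2.95 and 2.36 CPM in replicates 1 and 2, against 15.3 and 13.7 CPM in replicates 3 and 4, and 16 to 37.9 CPM elsewhere.

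Sperm genes were slightly higher in replicates 1 and 2, by much less than the genes above. None of the 31 major sperm protein genes tested was set apart. All 31 differences were positive (median 0.36), and 26 were higher without overlap (35.4% over all genes). The summed level of these genes was 5459 and 5335 CPM in replicates 1 and 2, against 4292 and 4678 CPM in replicates 3 and 4. Their family members are so alike that the counts of single genes are uncertain, which the sum avoids as far as reads were counted at all. Genes for sperm formation and activation had 26 of 30 positive (median 0.32) and none set apart. spe-11, a sperm protein that the embryo needs, had 130 and 135 CPM in replicates 1 and 2, against 92.0 and 110 CPM in replicates 3 and 4, and spe-9, needed for fertilization, had 6.43 and 5.45 CPM in replicates 1 and 2, against 3.73 and 3.99 CPM in replicates 3 and 4. The upstream genes that set sperm fate leaned slightly lower, with 11 of 14 negative (median −0.18), but fog-3 did not, with 5.91 and 5.65 CPM in replicates 1 and 2, against 5.28 and 5.29 CPM in replicates 3 and 4. In whole-worm RNA, fewer cells of a type and less RNA per cell cannot be told apart.

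Oocyte, eggshell and cell division genes lay slightly lower in replicates 1 and 2. Of 15 oocyte and maternal RNA-binding protein genes, 14 were negative (median −0.21); oma-1, which blocks early oocyte activation, had 437 and 425 CPM in replicates 1 and 2, against 514 and 477 CPM in replicates 3 and 4. Eggshell genes had 13 of 14 negative (median −0.35). cbd-1, a chitin-binding eggshell protein, had 1410 and 1300 CPM in replicates 1 and 2, against 2500 and 2040 CPM in replicates 3 and 4. All 17 mitotic cell cycle genes were negative (median −0.32), among them mcm-3, a subunit of the replication helicase, with 269.6 and 249 CPM in replicates 1 and 2, against 359 and 376 CPM in replicates 3 and 4. Meiotic chromosome axis genes had 21 of 28 negative (median −0.09). None of these genes was set apart in any of the 4 lists. Scaling moves such small shifts: with library totals alone the median of all genes moved by 0.08. Level goes with them too: the median difference was 0.19 in the lowest class by mean level and −0.13 in the highest.

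**Figure D4:**
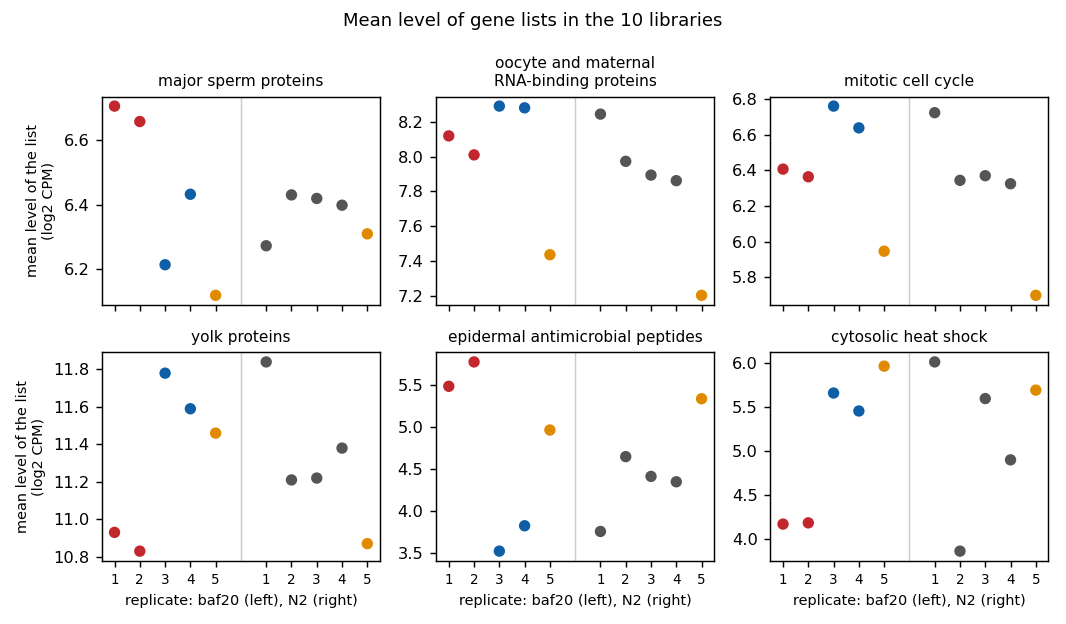
Mean level of 6 gene lists (log2 CPM, vertical axes not starting at 0) in the 10 libraries, F01D4.5(baf20) on the left and N2 on the right of each panel. Replicates 1 and 2 have the highest means of the series for major sperm proteins and epidermal peptides, and replicates 3 and 4 lie with N2 replicate 1 for oocyte, cell cycle and yolk genes.

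Set beside all 10 libraries, the germline lists place the pairs differently. For major sperm proteins replicates 1 and 2 had means of 6.71 and 6.66 log2 CPM, against 6.21 and 6.43 in replicates 3 and 4, and 6.12 to 6.43 in the other 6, so the first pair was highest of all. For oocyte genes replicates 1 and 2 had 8.12 and 8.01, against 8.29 and 8.28 in replicates 3 and 4, while N2 replicate 1 had 8.24 and N2 replicates 2 to 4 had 7.86 to 7.97. The libraries numbered 5 were lowest, with 7.44 in F01D4.5(baf20) and 7.204 in N2. For cell cycle genes the means were 6.41 and 6.36 in replicates 1 and 2, against 6.76 and 6.64 in replicates 3 and 4, with 6.72 in N2 replicate 1 and 6.33 to 6.37 in N2 replicates 2 to 4. The libraries numbered 5 were again lowest, with 5.95 in F01D4.5(baf20) and 5.70 in N2. For cell cycle genes replicates 1 and 2 thus lay near N2 replicates 2 to 4, and for oocyte genes they lay above these; in both lists replicates 3 and 4 and N2 replicate 1 were highest.

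Of the somatic tissue lists, body wall muscle, intestine and neuron genes had small medians, while flp and pharynx genes leaned higher. Body wall muscle (23 genes) and intestine (22 genes) had medians of −0.02 and −0.09, with 0 and 3 genes set apart. Neuron genes had a median of 0.05 over 24 genes. The flp neuropeptide genes leaned higher, with all 27 positive (median 0.37) and none set apart. The nlp neuropeptide list had 7 of 60 set apart higher, of which nlp-25, nlp-28, nlp-29, nlp-30, nlp-31 and nlp-34 are the epidermal peptides already described. The seventh was nlp-62, with 11.7 and 13.8 CPM in replicates 1 and 2, against 1.86 and 1.95 CPM in replicates 3 and 4, and 1.82 to 3.48 CPM in the other 6. Pharynx genes had 9 of 10 positive (median 0.45), with 6 higher without overlap (35.4% over all genes) and none set apart. Their mean was 4.17 and 4.04 log2 CPM in replicates 1 and 2, against 3.27 and 3.87 in replicates 3 and 4. The muscle myosin myo-2 had 116 and 102 CPM in replicates 1 and 2, against 42.2 and 90.3 CPM in replicates 3 and 4.

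Nuclear hormone receptors are a large family of transcription factors in this worm. Of 139 tested, 9 were set apart higher and 2 lower (2.94% and 1.13% over all genes), with 108 positive (median 0.39). nhr-156 had 39.1 and 32.5 CPM in replicates 1 and 2, against 11 and 7.80 CPM in replicates 3 and 4, whereas nhr-17 had 18.7 and 21 CPM in replicates 1 and 2, against 110 and 71.8 CPM in replicates 3 and 4. Transthyretin-related genes had 3 of 46 set apart higher (2.94% over all genes) and 38 positive (median 0.33). No gene of 3 housekeeping complexes was set apart. Cytosolic ribosomal protein genes went both ways, with 37 positive and 23 negative, differences of −0.541 to 1.14 and a median of 0.04. Mitochondrial ribosomal protein genes were negative in 53 of 58 cases (median −0.15) and proteasome genes in 18 of 19 (median −0.18). Over all genes in the highest class by mean level the median was −0.13, and the part of level was not tested.

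Cuticle genes, which track the moulting cycle, differed between lists in the sign of the median. The col family of collagens had 3 of 106 set apart higher and 1 lower (median 0.23). These counts are near the shares over all genes, 2.94% higher and 1.13% lower. col-19, an adult collagen, had 4510 and 3990 CPM in replicates 1 and 2, against 5080 and 4990 CPM in replicates 3 and 4. The 4 furrow collagens tested were all negative (median −0.80), with 1 set apart lower, but they were low. This 1 was dpy-7, which had 0.422 and 0.720 CPM in replicates 1 and 2, against 1.86 and 3.71 CPM in replicates 3 and 4, and 40.6 CPM in N2 replicate 5. With 4 and 7 counts in replicates 1 and 2, dpy-7 passed the filter through replicates 3 and 4 alone, which fixes its direction. Body shape collagens were negative in 10 of 12 cases (median −0.41), with none set apart, and differed mostly between replicates 3 and 4, with means of 2.67 and 4.06 log2 CPM, while replicates 1 and 2 had 2.76 and 3.25. mlt-10, a moulting gene, overlapped between pairs, with 2.74 and 6.79 CPM in replicates 1 and 2, against 4.87 and 14.7 CPM in replicates 3 and 4.

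**Figure D5:**
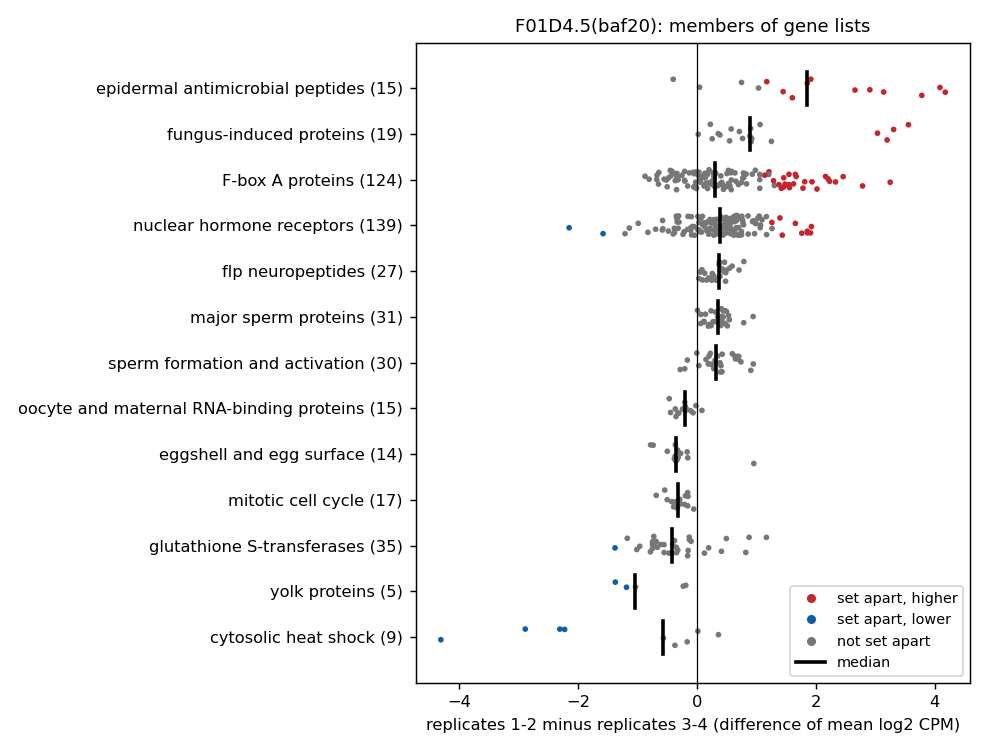
Difference between replicates 1-2 and replicates 3-4 (log2 CPM) for each tested member of 13 gene lists, with the number tested in brackets, the median as a black bar and set-apart genes in colour. Epidermal antimicrobial peptides have a median of 1.85 and heat shock genes reach −4.31, whereas sperm and oocyte lists sit within 1 log2 unit of 0.

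The same split of replicate numbers could be tested in N2. The N2 libraries had entered the principal component, but the replicate numbers were taken from the F01D4.5(baf20) libraries. N2 replicates 1 and 2 were not a close pair (chi-square per degree of freedom 25.22), and only 40.3% of the variance over the 4 libraries lay between the pairs. By the rule of a 2-fold gap, 5 of 12464 genes (0.0401%) were higher and 55 (0.441%) lower in N2 replicates 1 and 2. edgeR's quasi-likelihood test, adjusted by Benjamini-Hochberg over these genes, called 8 genes (0.0642%), all lower, and 0 (0%) higher. At an unadjusted p under 0.05 the test found 720 lower and 224 higher, and DESeq2 called 76 genes, 72 of them lower. Without N2 replicate 1, 2 or 3 the edgeR count was 667, 1757 or 13; these fits leave 1 library on one side, which is assumed to vary like the pair on the other. On simulated counts the test's false calls exceeded the nominal rate. The genes called included irg-7, an infection response gene, with 1650 and 1760 CPM in N2 replicates 1 and 2, against 3730 and 3860 CPM in N2 replicates 3 and 4 (log2 fold change −1.16, adjusted p = 0.0437 by edgeR). In F01D4.5(baf20) irg-7 had 1760 and 1910 CPM in replicates 1 and 2, against 1940 and 1300 CPM in replicates 3 and 4, which overlap.

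Most genes set apart higher in F01D4.5(baf20) replicates 1 and 2 had differences of the opposite sign in N2. Of the 8 genes called in N2, 2 were set apart in F01D4.5(baf20), both in the opposite direction: Y54G2A.11 and faah-2. Y54G2A.11 had 295 and 283 CPM in F01D4.5(baf20) replicates 1 and 2, against 111.6 and 95.2 CPM in replicates 3 and 4, but 85.7 and 78 CPM in N2 replicates 1 and 2, against 172 and 168 CPM in N2 replicates 3 and 4. Of the 319 genes higher in F01D4.5(baf20) replicates 1 and 2 that were tested in N2, 53 had a positive difference there (median −0.48), where 6185 of all 12464 genes were positive. Of 137 lower genes, 55 were negative (median 0.13), where 6279 of all genes were negative. Across 12047 genes, which are not independent replicates, the differences of the 2 strains had a Pearson's r of −0.31 and a Spearman's rho of −0.34. N2 replicate 1, the library close to F01D4.5(baf20) replicates 3 and 4, carries the number 1 and so stands on the other side of the split in N2.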

How the data were processed

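Messenger RNA of whole worms was measured in 10 libraries, 5 of F01D4.5(baf20) and 5 of N2. CASAVA, DESeq2, HISAT2 and HTSeq are listed in the submitters' processing notes, with no role or version, beside the builds ce10 and ce11. The build and strand setting used for counting are not given in the sources used here. Counts deposited by the authors are whole numbers, not normalized, in 57827 rows per library, mostly 1 row per transcript. Of these, 57515 rows, with 99.78% of counts, matched the Ensembl annotation on WBcel235 and were summed to 46458 genes. Coordinates are of that annotation. Reads shared by isoforms of 1 gene appear to be missing: gsp-4, pgl-1, rme-2 and unc-15 held 0 counts, and the 5524 genes with more than 1 row held 7.14% of all counts. Named genes with more than 1 row, such as F01D4.5, acs-1, pals-23 and icl-1, may lack reads for this reason.

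Total counts were 9059910 to 11056979 per library. Intervals and floors (3 counts) cover counting error only. For the 4 F01D4.5(baf20) libraries and, separately, 4 N2 libraries, genes were kept by filterByExpr (minimum count 10, minimum total 15) with the pair as group, scaled by TMM in edgeR 4.0.16 (R 4.3.3), and given as CPM or log2 CPM with a prior count of 2. A gene could pass this filter through 1 pair alone, which for genes near the floor fixes the direction of a difference. Besides those marked above, nlp-34, ora-1 and pals-23 passed through replicates 1 and 2 alone, and F44E5.5 through replicates 3 and 4 alone. Each had fewer than 10 counts in at least 1 library of the other pair. Differences are between means of log2 CPM, and fold differences are taken from them. Values of the other 6 libraries were scaled over all 10, which puts the 4 libraries 2.59 to 3.12% lower. The chi-square used genes with at least 10 counts in a pair and the 2-fold counts between libraries those with at least 50. The N2 test was edgeR's quasi-likelihood test, two-sided, with Benjamini-Hochberg adjustment at 0.05, and DESeq2 1.42.0 as alternative. The procedure was tested on simulated data, where false calls exceeded the nominal rate. Replicates are those of the labels; p-values measure the spread between such samples.

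The pairs and 39 gene lists were chosen with earlier results of these data known, and 17 more lists after values were seen. The rule for named genes took F01D4.5, the 15 genes per direction with the largest gap (mean log2 CPM at least 2), up to 4 genes per list with at least 3 set-apart members, a fixed set of tissue markers and the 5 smallest p in N2. Genes named outside it, such as sta-2, acs-2, mxl-3, F44E5.5 and the list members given as examples, were chosen after their values were seen. Alternatives changed the scaling, prior count, filter, gap, rows and libraries.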

Additional observations from a re-analysis of the deposited data

Results flagged for a closer look

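Of 68 sets of 5 libraries (34 gene lists in each strain), 15 had 1 library far from the other 4. In each it was the library numbered 5, which the comparison of pairs leaves out. For a single set chance gives about 1 in 20. The lists overlap, share the same libraries and were in part chosen after values were seen, so the 15 cannot be set against that rate. In F01D4.5(baf20) replicate 5 the mean log2 CPM was 6.98 for the col family collagens, against 4.93 to 5.38 in replicates 1 to 4, and 4.67 for hedgehog-related and patched-related genes, against 2.82 to 3.15. It was 6.90 for intestine genes (5.60 to 5.70 in replicates 1 to 4), 5.93 for lipid metabolism (5.21 to 5.30) and 4.34 for C-type lectins and lysozymes (3.68 to 3.79). Detoxification genes had 3.97 (3.26 to 3.47), UDP-glucuronosyltransferases 4.38 (3.73 to 3.89) and cytochromes P450 3.73 (3.01 to 3.09). Meiotic chromosome axis genes were lower, at 5.16 (5.74 to 5.90).

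In N2 replicate 5 lipid metabolism had 5.93, against 5.20 to 5.39 in N2 replicates 1 to 4. Detoxification genes had 4.09 (3.40 to 3.56), cytochromes P450 3.84 (3.16 to 3.33), carboxylesterases 4.91 (3.54 to 3.91) and fatty acid elongases 6.28 (5.79 to 5.86). Germline stem cell and P granule genes were lower, at 5.42 (6.11 to 6.36). The cause was not tested.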

How the results depend on the processing

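No paired analysis was possible because the comparison is between replicate numbers within 1 strain. The counts of set-apart genes followed the size of the gap: 909 higher and 393 lower at 1.5-fold, 69 and 21 at 4-fold. Lower genes numbered 91 with a filter of 5 CPM in 2 libraries and 235 with replicates 1 and 2 summed. With 1 library left out the counts were 481 to 697 higher and 216 to 254 lower. Other scalings, prior counts and no filter on low counts kept both counts within 1.5 times, with 65.4 to 78.4% of set-apart genes higher over all settings. In N2 the count of 8 was 76 with DESeq2, 305 with no filter, 0 with DESeq2's size factors in edgeR, 0 with the 5 CPM filter, 0 with rows as deposited, and 6 to 1757 with 1 N2 library left out; the cause was not tested. Medians of 34 lists moved by more than the spread within pairs in 84 of 340 cases, and 3 turned sign. That of UDP-glucuronosyltransferases (−0.06) became 0.017 with library totals and −0.103 to 0.058 with 1 library left out, turning without replicate 1, 3 or 4. That of hedgehog-related genes (0.03) was −0.117 to 0.253, turning without replicate 2 or 3, and that of col collagens (0.23) −0.00753 to 0.503, turning without replicate 3. Named genes held their side of the gap in 1090 of 1096 cases, and none turned. Many of them were picked for large gaps in these same libraries, so a high rate was built in and is not evidence. Genes near 3 counts, about 0.3 CPM, are limited by depth.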

Other observations

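Small families not described above also divided the pairs, as lists chosen after their values were seen. Of 10 nspb genes, nematode-specific peptides of unknown function, 6 were set apart higher in replicates 1 and 2, and all 10 were positive (median 1.60). nspb-12 had 7.17 and 6.07 CPM in replicates 1 and 2, against 0.932 and 1.58 CPM in replicates 3 and 4. The nspb list was low in replicates 3 and 4, with means of 0.37 and 0.80 log2 CPM. With 9 and 17 counts there, nspb-12 passed the filter through replicates 1 and 2 alone, as did nspb-10 with 2 and 4. This fixes the direction of such members. The nspe peptides went the other way in 3 of 4 cases. nspe-7 had 0.211 and 0.206 CPM in replicates 1 and 2, against 1.97 and 2.79 CPM in replicates 3 and 4. The low values are 2 counts each, under the floor of 3 counts. This gene passed the filter through replicates 3 and 4 alone, which fixes the direction of its difference. Carboxylesterases had 5 of 26 set apart higher (median 0.51), among them cest-1.2 with 94.3 and 75.3 CPM in replicates 1 and 2, against 17.7 and 18.1 CPM in replicates 3 and 4. Receptor guanylate cyclases of sensory neurons had 2 of 16 set apart higher (median 0.40), where 2.94% of all genes were.

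Of the abu and pqn proteins, glutamine- and asparagine-rich secreted proteins, 7 of 42 were set apart higher and none lower. Over all genes the shares were 2.94% and 1.13%. abu-10 had 5.06 and 4.83 CPM in replicates 1 and 2, against 0.829 and 0.929 CPM in replicates 3 and 4, and 20.8 CPM in F01D4.5(baf20) replicate 5. In replicates 3 and 4 abu-10 held 8 and 10 counts, abu-11 5 and 21, pqn-71 1 and 1, and abu-15 0 and 0. These genes passed the filter through replicates 1 and 2 alone, which fixes the direction of their differences. In the somatic gonad and egg-laying list 3 of 20 were set apart higher. These were bar-1, a beta-catenin, with 51.2 and 55.2 CPM in replicates 1 and 2, against 22.5 and 23.4 CPM in replicates 3 and 4, and the genes lfe-2 and let-23, which are counted over several rows. With 4 and 1 counts in replicates 3 and 4, let-23 passed the filter through replicates 1 and 2 alone, which fixes its direction. Without heat shock, collagen and yolk genes 359 genes were set apart higher and 132 lower, and with genes counted in 1 row alone 323 and 120; both alternatives were chosen after seeing the data.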
